A study of Mus musculus with 6 samples.

Results

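Low density lipoprotein (LDL) particles are taken up by receptors at the cell surface, and the cholesteryl esters they carry are split in lysosomes. Described here are 7 genes of that route out of 55416 in the table, chosen by name with earlier results of these data known. Lipa, Npc1 and Npc2 act in the lysosome, and Vldlr, Lrp8 and Lrp1 encode receptors. Mylip encodes an enzyme that marks receptors for degradation. The RNA of the 7 genes was measured in organoids grown from small intestine crypts of WT C57BL/6 mice. Crypts of 3 mice were cultured for 5 days with LDL at 50 μg/ml or with PBS, the vehicle, giving 3 libraries per treatment. The age and sex of the mice were not given in the sources used here. The LDL and PBS libraries of a mouse carry 1 animal identifier, so treatments could be compared within a mouse.

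In receptor-mediated uptake, LDL receptor family proteins bind apolipoproteins, enter the cell in clathrin-coated pits and release their cargo in endosomes. In the lysosome, acid lipase (Lipa) hydrolyzes cholesteryl esters, the soluble protein NPC2 picks up the free cholesterol, and the membrane protein NPC1 passes it out of the lysosome. The cholesterol that leaves the lysosome lowers SREBP2 processing and hence transcription of sterol synthesis genes, while oxysterols made from it activate the liver X receptors (LXRs). Mylip, also called Idol, is an LXR target and a ubiquitin ligase that sends VLDLR and the protein of Lrp8 to lysosomal degradation.

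Lipa rose about 3-fold with LDL and was the only 1 of the 7 genes that passed the test between treatments, in which the mouse was not a term. Mylip, Vldlr and Npc2 were lower with LDL in every mouse and passed the test once the mouse was a term of the fit. Lrp1, Lrp8 and Npc1 passed neither fit at above 1.5-fold. All 7 genes had a mean normalized count of at least 10 and were among the 18459 genes tested. A gene was called at a limma adjusted p below 0.05 together with a difference above 1.5-fold. By that rule 1 of the 7 genes was called higher and 0 were called lower, where 0.878% of the tested genes were called higher and 0.395% lower. At an unadjusted p under 0.05, 6 of the 7 passed and 4 of these also changed more than 1.5-fold, where 19.7% and 10.5% of the tested genes did. With the other tools, edgeR called 0 of the 7 lower (0.379% of the tested genes) and DESeq2 called 2 lower, Mylip and Vldlr (1.89%). With the mouse as a block 1 gene was called higher and 3 lower, against 5.68% and 3.46% of the tested genes. Without the LDL library of mouse 2, limma without the block also called Mylip, Vldlr and Npc2 lower, with log2 fold changes of -1.60, -0.78 and -0.78, where 6.14% of the tested genes were called lower. Without any other single library 0 of the 7 were called lower. Npc1 changed sign between mice, and the other 6 genes moved in 1 direction in all 3 mice, as 51.1% of the tested genes did.

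**Figure D1:**
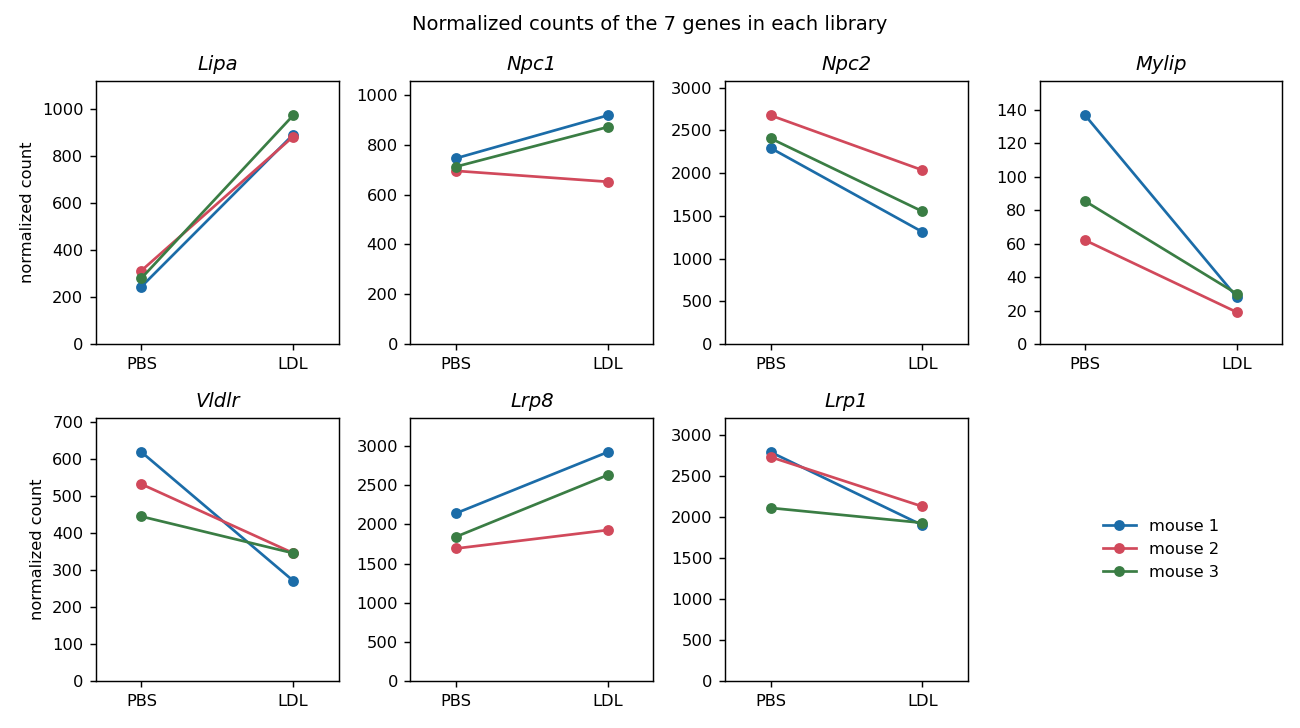
Normalized counts (y axis, from 0) of the 7 genes in the PBS and LDL libraries (x axis), with a line joining the libraries of each mouse. The LDL values of Lipa lie between 883 and 973 and its PBS values between 245.0 and 313, while those of Npc1, Lrp1 and Lrp8 overlap between treatments.

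The libraries held 22061545 to 31073360 reads on genes, and 1 read was worth 0.814 to 1.24 normalized counts. Genes with a read numbered 29285 to 30018 with PBS, and 35781, 29870 and 32751 in the LDL libraries of mice 1, 2 and 3. The cause of this difference was not tested. The animal identifier of mouse 3 begins with other letters than those of mice 1 and 2, although the genotype label is WT for all, so the 7 genes are also given without mouse 3. Epithelial markers, such as Epcam and Cdh1, summed to 73382 to 78318 normalized counts with PBS and 83191 to 106320 with LDL. Of the stromal markers, 3 of 11 reached a mean of 10, and their sum was 168 to 193 with PBS and 100.9 to 168 with LDL. Endothelial markers summed to 74.1 to 106 with PBS and 60.2 to 100 with LDL. Of the leukocyte markers, 5 of 11 reached a mean of 10, while the macrophage genes Adgre1, C1qa and C1qb were near 0. The 11 leukocyte markers summed to 288 to 381 with PBS and 326 to 482 with LDL. Of the 5, limma called 0 without the mouse as a block and 1 higher with it. In these bulk libraries a change in the share of a cell type and a change in RNA per cell cannot be told apart.

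The regions before the transcription starts of Lipa and Mylip are shown because these genes had the highest and the lowest log2 fold change of the 7. A window of 250 bases upstream was read from GRCm39 at the canonical transcript start of GENCODE M39, on the strand of the gene, and the bases that an annotated exon of another transcript covers were left out. What remained was chr19:34504938-34505130 for Lipa (minus strand, 193 bases) and chr13:45542966-45543214 for Mylip (plus strand, 249 bases). Capitals mark matches on either strand to the letters CCAAT of the CCAAT box, TATAAA of the TATA box or GGGCGG of the GC box.
Lipa: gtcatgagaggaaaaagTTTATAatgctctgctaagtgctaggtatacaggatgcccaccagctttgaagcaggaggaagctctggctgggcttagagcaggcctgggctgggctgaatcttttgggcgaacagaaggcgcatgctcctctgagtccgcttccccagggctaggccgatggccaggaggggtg
Mylip: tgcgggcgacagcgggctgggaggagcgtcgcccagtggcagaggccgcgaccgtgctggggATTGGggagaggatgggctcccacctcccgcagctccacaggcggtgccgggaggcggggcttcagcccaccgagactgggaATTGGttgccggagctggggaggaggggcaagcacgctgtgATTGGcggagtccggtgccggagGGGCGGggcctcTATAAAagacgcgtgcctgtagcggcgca
In the whole window Mylip held 3 CCAAT boxes, at positions -188, -106 and -65 from the start, a GC box at -42 and a TATA box at -30. Lipa held a TATA box on the other strand at -233 and a CCAAT box at -20, and Vldlr a CCAAT box at -70 and a GC box at -34. Of the 21757 mouse promoters of this length, 36.5% held a CCAAT box, 11.9% a TATA box and 36.3% a GC box. None of the 7 genes held TCACGTGA, the E-box of lysosomal genes (0.754% of promoters), its core CACGTG (6.27%), TCACCCCAC, a sterol regulatory element core (0.446%), or AGGTCA, the nuclear receptor half-site (13.1%). The absence of a match says only that these letters are not in this window.

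Lipa (ENSMUSG00000024781, chr19:34469712-34522163, minus strand) encodes lysosomal acid lipase, the enzyme that frees cholesterol and fatty acids from LDL. Its normalized counts were 245.0, 313 and 281 in the PBS libraries of mice 1, 2 and 3, and 892, 883 and 973 in their LDL libraries. Every LDL value was above every PBS value, and the spread within a treatment was small beside the gap. The mean rose from 280 ± 34.1 to 916 ± 49.8 (SD, n = 3 mice), which is 3.28-fold. The log2 fold change was 1.71 ± 0.12 (standard error; 95% confidence interval 1.43 to 1.99; limma adjusted p = 0.00137). Within mice 1, 2 and 3 the ratio was 3.64, 2.82 and 3.47. Without both libraries of mouse 3 the log2 fold change was 1.68 and limma without the block called no gene at all (1272 of 18459 genes had an unadjusted p under 0.05), whereas limma with the block and DESeq2 called Lipa in these mice, with adjusted p = 0.0101 and 3.91e-08.

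Npc2 (ENSMUSG00000021242, chr12:84801334-84820617, minus strand) encodes the soluble carrier that receives cholesterol inside the lysosome. The PBS libraries of mice 1 to 3 held 2295, 2677 and 2407 normalized counts and the LDL libraries 1314, 2036 and 1554. All LDL values were below all PBS values, and mouse 2 was the highest in both treatments. The mean went from 2460 ± 196 to 1634 ± 368 (SD, n = 3 mice), a log2 fold change of -0.61 ± 0.16 (standard error; 95% confidence interval -0.98 to -0.24). This did not pass limma without the block (adjusted p = 0.103) and passed with it (adjusted p = 0.00527). The change is close to the fold threshold, and without mouse 3 it was -0.60 on the log2 scale. Limma with the block did not call Npc2 without mouse 3 (adjusted p = 0.112). Npc2 shares 593 exon bases with Isca2 on the other strand, and the strand setting of the counting was not given in the sources used here.

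Npc1, which encodes the lysosomal membrane transporter for cholesterol (ENSMUSG00000024413, chromosome 18, bases 12322749 to 12369550, minus strand), had 745, 695 and 712 normalized counts with PBS and 917, 651 and 870 with LDL. The groups overlapped, since mouse 2 was lower with LDL and the other mice higher. The means were 717 ± 25.7 and 813 ± 142 (SD, n = 3 mice). The log2 fold change was 0.17 (95% confidence interval -0.16 to 0.49; limma adjusted p = 0.571, and 0.333 with the block), an interval that leaves out any difference above 1.5-fold in either direction. Without mouse 3 the log2 fold change was 0.10. Npc1 shares 1086 exon bases with Rmc1 on the other strand.

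Around these genes, the list of lysosomal cholesterol release and export held 20 genes, all tested, with a median log2 fold change of -0.04 against -0.02 over all tested genes. Lipa and Scarb2 were called higher and 0 genes lower. At an unadjusted p under 0.05, 8 passed, where 19.7% of the tested genes did. Scarb2 encodes LIMP-2, a lysosomal membrane protein with a cholesterol-conducting tunnel, and had 2246, 2407 and 2215 normalized counts with PBS and 4491, 3416 and 3979 with LDL. Its log2 fold change was 0.78 (limma adjusted p = 0.0241), which lost the call without PBS replicate 1, 2 or 3 or LDL replicate 3 (0.77, 0.82, 0.76 and 0.78). With the mouse as a block Osbpl5 and Gramd1b, which encode sterol transfer proteins at membrane contacts, also rose, by 0.62 and 0.68 on the log2 scale, and Npc2 and Npc1l1 fell. Npc1l1, the importer of dietary cholesterol at the brush border, had a log2 fold change of -0.75 (limma adjusted p = 0.269 without the block and 0.00329 with it). Stard3, Lamp1, Lamp2 and Rab7 had log2 fold changes between -0.06 and 0.07.

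**Figure D2:**
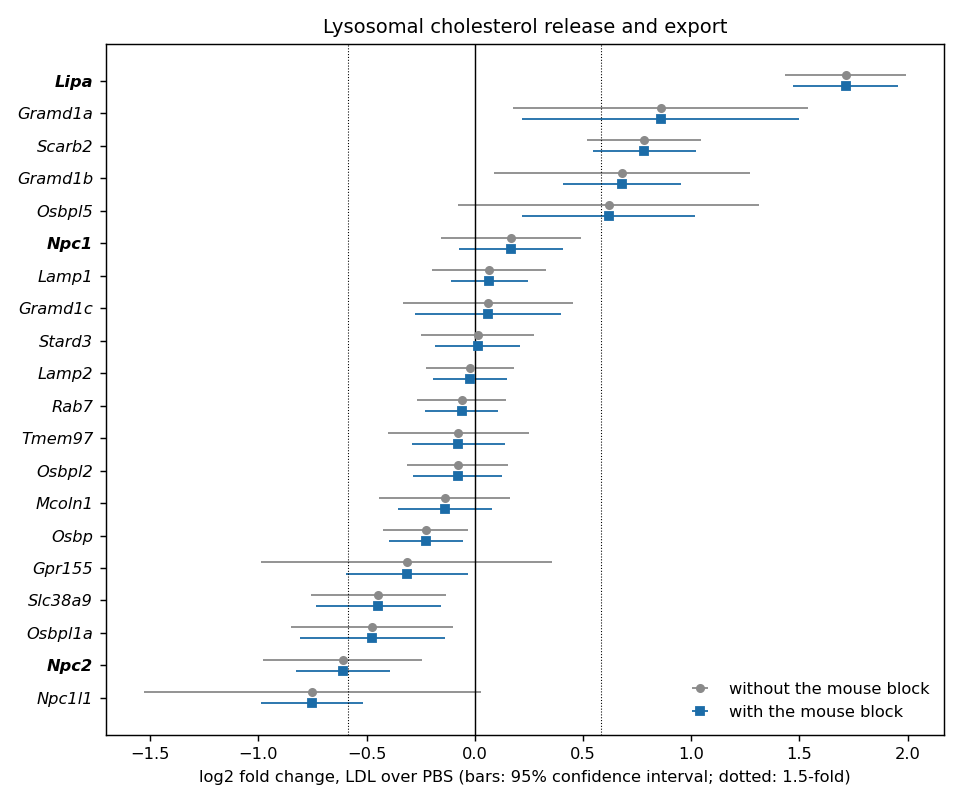
Log2 fold changes of LDL over PBS (x axis) for the 20 genes of lysosomal cholesterol release and export (y axis), with 95% confidence intervals without and with the mouse as a block and dotted lines at 1.5-fold. Lipa at 1.71 lies farthest to the right and Npc1l1 at -0.75 and Npc2 at -0.61 farthest to the left.

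Other lysosomal genes were measured on a list of 41 hydrolases, membrane proteins and their regulators, of which 40 were tested. The median log2 fold change was -0.04 and the highest was 1.27, below the 1.71 of Lipa. In limma without the block only Glb1, the lysosomal β-galactosidase, was called, and it fell by 0.72 on the log2 scale (limma adjusted p = 0.0469). Leaving out any library but LDL replicate 2 ended that call, with log2 fold changes of -0.77 to -0.63. For the 40 genes edgeR called 2 and DESeq2 called 5, and 12 had an unadjusted p under 0.05, where 19.7% of the tested genes did. With the block 2 rose and 4 fell, against 5.68% and 3.46% of the tested genes. Ctsl and Ctsh, which encode cathepsins, had log2 fold changes of 1.27 and 0.89 and rose in that fit.

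Of the receptors, Vldlr (ENSMUSG00000024924, chr19:27193862-27231631, plus strand) encodes the very low density lipoprotein receptor, which binds apolipoprotein E and reelin. Its normalized counts were 619, 532 and 445 with PBS in mice 1, 2 and 3 and 271, 346 and 345 with LDL. The LDL values were all below the PBS values, with the widest gap in mouse 1 and the narrowest in mouse 3. The mean went from 532 ± 87.0 to 321 ± 43.1 (SD, n = 3 mice), a log2 fold change of -0.72 ± 0.16 (standard error; 95% confidence interval -1.10 to -0.35). It missed the threshold in limma without the block (adjusted p = 0.0753) and fell in the fit with it (adjusted p = 0.0189). Within mice the PBS level was 2.28, 1.54 and 1.29 times the LDL level, and without mouse 3 the log2 fold change was -0.90. Limma with the block did not call Vldlr without mouse 3 (adjusted p = 0.0818).

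Lrp8 (ENSMUSG00000028613, chr4:107659066-107734038, plus strand), the gene of apolipoprotein E receptor 2, had 2143, 1692 and 1842 normalized counts with PBS and 2925, 1928 and 2631 with LDL. It was higher with LDL within each mouse, but the LDL value of mouse 2 lay within the PBS values. The means were 1893 ± 229 and 2495 ± 512 (SD, n = 3 mice). The log2 fold change was 0.38 (95% confidence interval 0.00 to 0.77; limma adjusted p = 0.254, and 0.0238 with the block at under 1.5-fold), and 0.32 without mouse 3.

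Lrp1 (ENSMUSG00000040249, chr10:127374012-127457017, minus strand) encodes a large endocytic receptor for remnants, proteases and their inhibitors. The PBS libraries held 2793, 2733 and 2111 normalized counts and the LDL libraries 1900, 2129 and 1929. Mouse 3 had the lowest PBS value, below the LDL value of mouse 2, so the groups overlapped. The means were 2546 ± 377 and 1986 ± 125 (SD, n = 3 mice), and the log2 fold change was -0.35 (95% confidence interval -0.64 to -0.06; limma adjusted p = 0.181, and 0.0446 with the block at under 1.5-fold). Without mouse 3 it was -0.46.

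The LDL receptor family list held 16 genes, of which 14 were tested. None was called (5 had an unadjusted p under 0.05, and edgeR called 0 and DESeq2 called Vldlr), and with the block Vldlr alone was called. Lrp5 and Lrp10 had LDL values above all PBS values, with log2 fold changes of 0.56 and 0.33 (limma adjusted p = 0.156 and 0.142; 0.00295 and 0.0236 with the block, both under 1.5-fold). Lrp5, like Lrp6, encodes a Wnt co-receptor, and Lrp6 had a log2 fold change of -0.04. Lrp2, which encodes megalin, was listed at 9.19, 1.24 and 4.07 normalized counts with PBS and 140, 0.909 and 53.5 with LDL, so it was high in the LDL libraries of mice 1 and 3 and at 1 read in that of mouse 2 (limma adjusted p = 0.428).

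**Figure D3:**
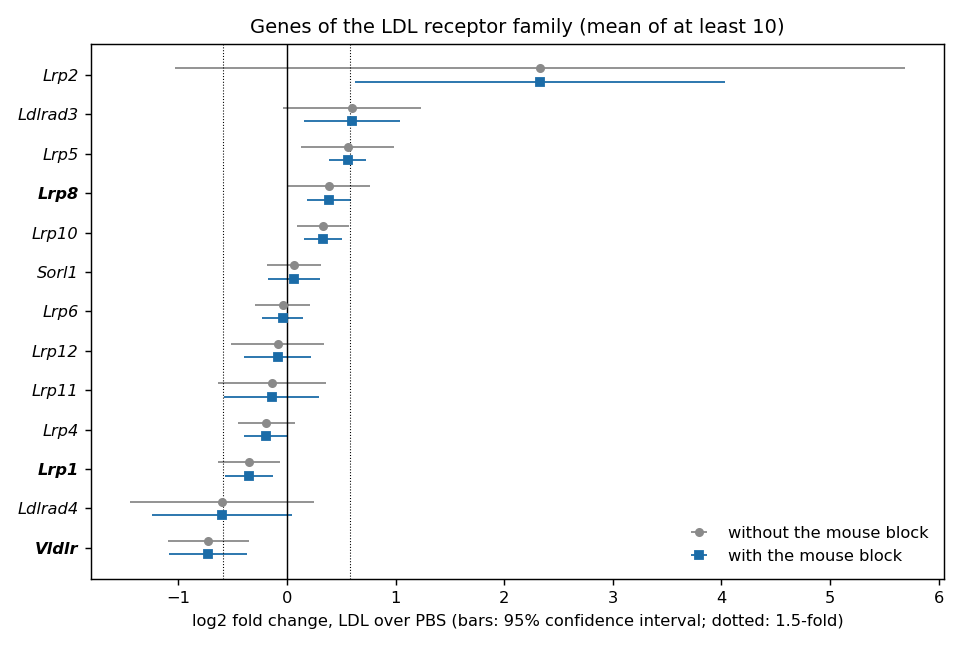
Log2 fold changes of LDL over PBS (x axis) for 13 of the 14 tested genes of the LDL receptor family (y axis), with 95% confidence intervals without and with the mouse as a block and dotted lines at 1.5-fold. Vldlr at -0.72 is the lowest, Lrp6 at -0.04 is near 0, and Lrp2 at 2.33 has an interval that crosses 0 without the block.

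Levels between genes were compared per kilobase of exon, where each base in any annotated exon of the gene was counted. This length can differ from that of the transcripts present, by amounts that vary between genes, so the order depends on the annotation. With PBS the order was Npc2 at 401 ± 32.0 normalized counts per kilobase, Lrp8 at 145 ± 17.6, Lrp1 at 124 ± 18.4, Npc1 at 62.9 ± 2.26, Vldlr at 52.3 ± 8.56, Lipa at 36.9 ± 4.50 and Mylip at 28.6 ± 11.5 (SD, n = 3 mice). The neighbours Lrp8 and Lrp1, Npc1 and Vldlr, and Lipa and Mylip differed by less than the sum of their SDs. With LDL, Lipa at 121 ± 6.58 was above Lrp1 at 96.9 ± 6.08 and Npc1 at 71.2 ± 12.5, and Mylip at 7.76 ± 1.76 stayed the lowest of the 7.

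Mylip (ENSMUSG00000038175, chr13:45543215-45565501, plus strand) encodes the ubiquitin ligase that removes lipoprotein receptors. It had 137, 62.1 and 85.5 normalized counts with PBS and 28.1, 19.1 and 30.1 with LDL, from 134, 50 and 105 reads and 23, 21 and 36 reads. All LDL values were below all PBS values, and the PBS values spread widely, with mouse 1 the highest. The mean went from 94.8 ± 38.2 to 25.8 ± 5.85 (SD, n = 3 mice). The log2 fold change was -1.79 ± 0.33 (standard error; 95% confidence interval -2.56 to -1.02). Limma gave an adjusted p = 0.0508 without the block, just above the threshold, and 0.00273 with it, where Mylip fell. The PBS level was 4.88, 3.25 and 2.84 times the LDL level in mice 1, 2 and 3, and without mouse 3 the log2 fold change was -1.95. Exact two-sided permutation tests over the 6 libraries gave p = 0.1 for Mylip, Lipa, Npc2 and Vldlr, the smallest value that 3 against 3 allows, p = 0.2 for Lrp1 and Lrp8 and p = 0.4 for Npc1. Of the 7 genes, 1 had all LDL values above all PBS values and 3 had all below, where 11.9% and 12.3% of the tested genes did.

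Receptor endocytosis, recycling and degradation was followed on 23 genes, 21 of them tested. None was called (5 had an unadjusted p under 0.05, while edgeR called 0 and DESeq2 called 3), and the median log2 fold change was -0.06. With the block 1 gene rose and 2 fell, and those that fell were Mylip and Usp2, a deubiquitinase, by 1.79 and 0.72 on the log2 scale.

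Mylip was also set beside the other LXR genes and the SREBP2 genes, the branches of sterol control that LDL cholesterol is known to act on. The LXR list held 12 genes, all tested, with a median log2 fold change of -0.34 and 10 of 12 below 0, against a median of -0.02 over all tested genes. None was called without the block (5 had an unadjusted p under 0.05, edgeR called 0 and DESeq2 called 2). With the block Mylip, Nr1h3 and Scd1 fell and 0 rose. Nr1h3, which encodes LXRα, had 572, 698 and 624 normalized counts with PBS and 315, 475 and 348 with LDL, a log2 fold change of -0.75. Scd1, the stearoyl-CoA desaturase and also a target of SREBP1, had a log2 fold change of -1.29. Abca1, the cholesterol exporter and an LXR target like Mylip, was added after its value was seen and is 1 of the 2 genes of the list above 0. It had 399, 601 and 462 normalized counts with PBS and 296, 813 and 498 with LDL. The log2 fold change of Abca1 was 0.04 with a 95% confidence interval of -0.74 to 0.82. The SREBP2 list held 18 genes, all tested, with a median log2 fold change of -0.05. None of them was called by limma without or with the block, by edgeR or by DESeq2, and 2 had an unadjusted p under 0.05.

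**Figure D4:**
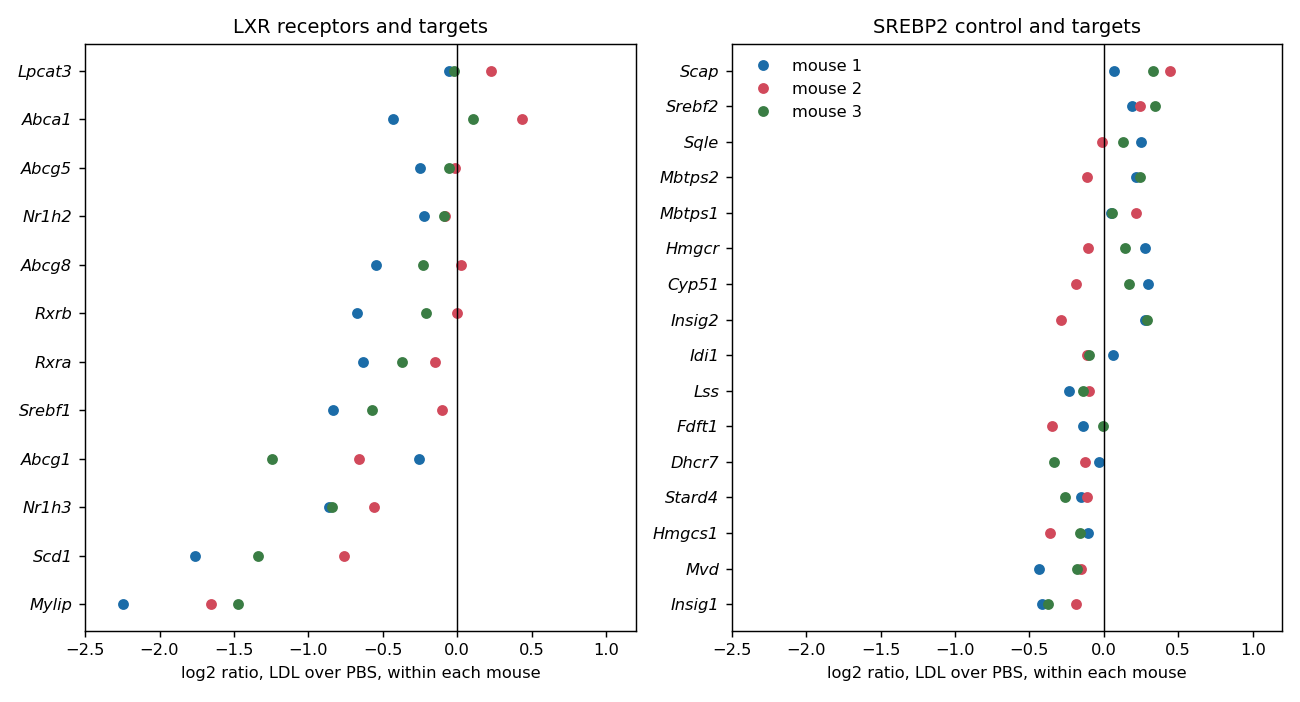
Log2 ratios of LDL over PBS within each mouse (x axis, 1 point per mouse) for the 12 genes of the LXR list, left, and 16 of the 18 genes of the SREBP2 list, right (y axis). Mylip lies at -2.25, -1.65 and -1.48 in mice 1, 2 and 3, at the bottom of the LXR list, and the SREBP2 genes lie around 0.

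By library, the genes with the pattern most like each called gene were found by Pearson correlation of log2 values over the 6 libraries among 11939 genes with a mean of at least 100. For Lipa these were Htatip2 (r = 0.997), Slc30a6 (0.995) and Dusp5 (0.993), for Mylip B3gntl1 (0.990), Itpr2 (0.989) and Klhl7 (0.985), for Npc2 Rps27a-ps3 (0.999), Rpl3-ps1 (0.999) and Tsc22d3 (0.998), and for Vldlr Gm14970 (0.995), Mlxipl (0.987) and Ppp1r12b (0.984). The points share libraries, treatment and mice, and the 2 ribosomal pseudogenes may share reads with their parent genes.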

How the data were processed

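The data are RNA-Seq of 6 libraries, an LDL and a PBS library from the organoids of each of 3 mice. Groups and mice were taken from the labels. The deposited signal values are normalized counts: per the study's methods and the submitters' processing notes the authors demultiplexed with bcl2fastq 2.20, aligned single-end reads of rRNA-depleted, stranded libraries to GRCm39 with STAR, made the count matrix with featureCounts and ran DESeq2. Values were whole reads divided by 1 size factor per library (100% whole within 0.01). The strand setting and annotation of the counting were not given in the sources used here. Gene positions came from GENCODE M39, which held 54749 of the 55416 identifiers, and 12377 genes had no read.

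Normalized counts plus 1 were taken to log2 for the 18459 genes whose mean reached 10, and treatments were tested by limma (trended eBayes, two-sided, Benjamini-Hochberg adjustment over all of them). The mouse was not a term, since the study's methods name none for DESeq2. For its RT-PCR on PBS- and LDL-treated organoids the study used paired t-tests. An alternative fit took the mouse as a block. Pairing came from the animal identifiers. After the treatment means were removed, libraries of the same mouse correlated with r = 0.484, 0.421 and 0.462 across genes, while those of different mice had r of -0.368 to -0.0809. With the means removed, the 3 libraries of a treatment sum to 0 per gene. Where same-mouse correlations lie above 0, those between mice must then lie below 0 on balance. The other alternatives were other pseudocounts, filters and scaling, each library left out, both libraries of mouse 3 left out, and DESeq2 and edgeR on the recovered whole reads. The fits were tested on simulated data drawn without differences between mice, so that test cannot decide between the fits without and with the block. The depth of 22061545 to 31073360 reads limits genes with few reads, such as Mylip, by counting error.

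The 7 genes, the 8 pathway lists and the 12 marker lists were chosen with earlier results of these data known. The text names all 7 genes, up to 4 genes per list that were called without or with the block, by size of change, any gene of the receptor family and of the lysosomal cholesterol list, and the 3 genes most like each called member. Abca1, Apob and Dab1 were added after their values were seen. Some genes of the lists enter the counts and are not reported here by name. Tools were limma 3.58.1 and edgeR 4.0.16 with DESeq2 1.42.0 in R 4.3.3, and Python 3.11.15, pandas 2.3.3, scipy 1.17.1 and matplotlib 3.10.9.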

Additional observations from a re-analysis of the deposited data

How the results depend on the processing

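Lipa kept its direction and its call in 18 of 19 alternatives, with log2 fold changes of 1.62 to 1.80, and the exception was limma without both libraries of mouse 3. Of the 7 genes 0 were then called higher, with 0 higher and 0 lower over all genes (limma; 1272 at an unadjusted p under 0.05). In these 2 mice, DESeq2 called 1 member higher and 1 lower (Mylip), with 176 and 57 genes over all, and the replicate block called 1 and 1, with 265 and 77 over all; both were added after seeing the data. With all libraries, the replicate block, which pairs the libraries of a mouse, called 3 members lower, with 1048 genes higher and 639 lower over all, and it changed the call of Mylip, Npc2 and Vldlr and of no other member. DESeq2 called 2 members lower, with 846 and 348 genes over all, DESeq2 with the replicate block 3, with 981 and 511, and edgeR with the replicate block 3, with 1171 and 588. Without a filter on low values 2 members, Mylip and Vldlr, were called lower, with 506 and 245 genes over all, and upper-quartile scaling called 1, Mylip. Leaving out 1 library gave 0 to 3 members lower, 18 to 1179 genes higher and 2 to 1133 lower over all. The 3 were Mylip, Npc2 and Vldlr without LDL replicate 2, which also gave the highest counts over all genes, and the lowest came without LDL replicate 3. The cause was not tested. No result reversed. Mylip, with 21 to 134 reads per library, is the member most limited by depth.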

Other observations

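Ligands and ligand handling were covered by 11 genes, 9 of them tested, and 3 were called higher with LDL and 0 lower. Among these were Thbs1, the extracellular matrix protein thrombospondin 1, and Plat, the tissue plasminogen activator, both known ligands of Lrp1, alone or as a complex. Thbs1 had 92.9, 43.5 and 93.6 normalized counts with PBS and 772, 298 and 582 with LDL in mice 1, 2 and 3, a log2 fold change of 2.80 (limma adjusted p = 0.0241). Plat had 53.1, 27.3 and 35.0 with PBS and 1482, 177 and 870 with LDL, a log2 fold change of 4.01 (limma adjusted p = 0.0411). The call was lost for Thbs1 and Plat without PBS replicate 1, 2 or 3 or LDL replicate 3, and for Plat also without LDL replicate 1 (log2 fold changes of 2.44 to 2.99 and 3.37 to 4.26). In both genes every LDL value was above every PBS value, and mouse 2 was the lowest with LDL. With the mouse as a block Plau and Apob, the gene of the LDL apolipoprotein, also rose and Dab1, an adaptor of Vldlr and Lrp8, fell by 0.88 on the log2 scale. Apob had 14707, 18197 and 13529 normalized counts with PBS and 25991, 23228 and 23465 with LDL. Among 8 other LDL receptors, 5 of them tested, Cd36 alone was called with the block, with a log2 fold change of 1.95.

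Marker lists of the intestinal cell types are given as values beside the genes of LDL uptake, and their part in those results was not tested. Of 6 tested fetal-like markers such as Clu and Ly6a, limma called 0 without the block and 6 higher with it (edgeR called 0, DESeq2 6, and 6 had an unadjusted p under 0.05), with a median log2 fold change of 3.77 and sums of 89.5 to 769 normalized counts with PBS and 1556 to 17827 with LDL. Of 7 goblet cell markers 1 was called higher and 2 lower, and their sums were 44449 to 49968 with PBS and 26857 to 32188 with LDL, without overlap. The number of goblet cell markers called was 0 without PBS replicate 1, 2 or 3 or LDL replicate 3. It was 1 without LDL replicate 1 and 5 without LDL replicate 2, and with the block 1 was called higher and 3 lower. Of 7 Paneth cell markers limma called 0 without the block, and 1 higher and 3 lower with it. For these edgeR called 0, DESeq2 4, and 4 had an unadjusted p under 0.05, and the sums were 17780 to 28720 and 13735 to 16857. Enterocyte markers, of which 1 of 9 was called higher, had overlapping sums of 24515 to 51178 and 34840 to 66253. The count called was 0 without LDL replicate 3, and with the block 4 were called higher and 2 lower. None of the 8 stem cell, 8 enteroendocrine or 4 tuft cell markers was called by limma without the block or by edgeR, while DESeq2 called 2, 1 and 0 and 4, 2 and 1 had an unadjusted p under 0.05. With the block 1 stem cell marker was called higher and 2 lower, and 2 enteroendocrine markers and 1 tuft cell marker were called lower. The sums of these lists overlapped between treatments, at 26144 to 44274 and 21015 to 29774, 10354 to 15952 and 7829 to 12517, and 242 to 345 and 187 to 501. The log2 fold changes of the stem cell list ran from -1.17 to 1.22, with a median of 0.13. Neuronal and glial markers, of which 1 of 4 tested was called higher, summed to 230 to 249 and 197 to 248. Leaving out any library but LDL replicate 2 gave 0 calls on that list.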
